A study of Mus musculus with 18 samples.

Results

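Commd4 was represented by 3 sgRNAs in a pooled CRISPR library of 252 sgRNAs that was read in 18 libraries of mouse Ba/F3 cells. The library also held 3 sgRNAs for each of 75 other genes and 24 non-targeting controls. Commd4 was chosen because its sgRNAs fell under IgA, so its values, which rest on the libraries used for that choice, are a description and carry no test. The sgRNAs were found by the gene name in the deposited count table.

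Ba/F3 is a mouse pro-B cell line that depends on interleukin-3. The screen asked which cell death genes alter survival under anti-hHer2 IgA, with and without the inositol phosphate kinase ITPK1. The parental sensBa/F3 cells (ITPK1_WT) and a pool of 6 ITPK1-deficient clones (ITPK1_KO) received this one library by transduction and grew for 10 days. The backgrounds were then stained with different tracking dyes, mixed in equal parts and injected intraperitoneally into mice transgenic for hCD89, the human myeloid receptor for IgA, at 20000000 cells per mouse.

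All 8 mice carried the hCD89 transgene, and every mouse received both backgrounds. Mice 1 to 4 were given PBS (vehicle) and mice 5 to 8 anti-hHer2 IgA. Viable tumour cells were recovered after 16 h and sorted by dye, which gave 4 libraries for each combination of background and arm. A single library of each background came from before injection. Each background was 1 transduced pool shared by all mice, so errors describe the spread between mice within that pool. Dye and ITPK1 background cannot be told apart, and neither can the ITPK1 deletion and the history of the 6 clones. The age and strain of the mice and the promoter of the transgene are not given in the sources used here.

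COMMD4 belongs to the COMM domain family, whose members assemble with CCDC22 and CCDC93 into a complex on endosomes. In human cells this complex works with the retriever subunits, as the Commander assembly, to return membrane proteins from endosomes to the cell surface. Other members of the family, best studied for human COMMD1, also take part in the control of NF-kB and of copper handling. The counts give the abundance of the cassettes in surviving cells. They do not show how many of the Commd4 alleles were cut, and no RNA or protein of Commd4 was measured.

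The guide sequences are shown because every value that follows counts reads of one of them. They are printed 5′ to 3′, and the capitals mark the 12 bases nearest to the PAM, the part of a Cas9 guide where mismatches are tolerated least. The PAM itself is not part of the cassette.
Commd4 sg-1: ctagagcaCACTCACCACGT
Commd4 sg-2: gaaactcaGCACCGCGACCG
Commd4 sg-3: atcactgtCGACACTATGCT

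The guides did not resemble each other. Their GC content was 55% for sg-1, 65% for sg-2 and 45% for sg-3, against a median of 50% in the whole library with a range from 25% to 85%. Each differed from every other sgRNA of the library at 10 or more of its 20 positions, counted without gaps, so a few sequencing errors would not turn one into another. None matched the promoter window around the Commd4 start site in RefSeq (GRCm38.p6) on either strand. The exons they target were not analysed here.

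Abundance is given as counts per 1000000 reads (CPM), with libraries scaled by the trimmed mean of M-values (TMM). It is a share of the pool, so a lower value means fewer reads relative to the other sgRNAs and does not by itself count cells. A single Commd4 sgRNA had between 1094 and 3171 reads per library, and library totals ran from 317564 to 808586 reads. Multiplying the share of reads by the cells sorted gave an estimate of 1775 to 9652 cells behind each sgRNA in a recovered library, if each cell carried 1 cassette.

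Before injection the Commd4 sgRNAs were neither rare nor abundant. Their summed reads stood at 74.0% of the mean level of the non-targeting sgRNAs in ITPK1_WT cells, rank 32 of 76 genes, where the median gene stood at 68.6%. In ITPK1_KO cells they stood at 71.0%, rank 38, with a median gene at 70.6%.

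The single sgRNAs differed between the backgrounds before injection, though with 1 library each there is no replicate error. sg-1 made up 0.410% of reads in ITPK1_WT cells (exact 95% interval 0.393% to 0.427%) and 0.370% in ITPK1_KO cells (0.354% to 0.387%). sg-2 went the other way, with 0.397% (0.381% to 0.414%) and 0.427% (0.410% to 0.446%). sg-3 made up 0.454% (0.436% to 0.471%) in ITPK1_WT cells and 0.395% (0.378% to 0.412%) in ITPK1_KO cells. These intervals cover counting error only, since reads without molecular identifiers are not independent molecules. They overlapped between the backgrounds for sg-2 and not for sg-1 or sg-3.

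In ITPK1_WT cells the Commd4 sgRNAs were depleted under IgA. Their summed abundance in vehicle mice 1 to 4 was 13522, 12914, 12908 and 12611 CPM. In IgA mice 5 to 8 it was 9261, 9566, 8620 and 9071 CPM. Every IgA mouse lay below every vehicle mouse, and the lowest vehicle value exceeded the highest IgA value by more than the whole range of either group. The means were 12989 ± 383 and 9130 ± 396 CPM (SD, n = 4 mice each), 29.7% lower under IgA, or -0.51 on the log2 scale (SE 0.038).

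Each of the 3 sgRNAs took part in this. Vehicle mice 1 to 4 had sg-1 at 4050.4, 3927, 3916 and 3990.2 CPM, and IgA mice 5 to 8 had it at 2702, 2749.9, 2379.8 and 2696 CPM. The IgA values of sg-1 were close to each other except in mouse 7, which was the lowest. sg-2 was at 4631, 4291, 4348 and 4271 CPM in vehicle mice and at 3449, 3532, 3165 and 3413 CPM in IgA mice, with mouse 7 again lowest. sg-3 was at 4841, 4695, 4645 and 4349.7 CPM in vehicle mice and at 3109, 3284, 3075 and 2961 CPM in IgA mice, with mouse 8 lowest. No sgRNA had overlapping groups.

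On the log2 scale the differences between IgA and vehicle mice were -0.60 for sg-1 (SE 0.049), -0.37 for sg-2 (SE 0.044) and -0.58 for sg-3 (SE 0.045). sg-2 therefore had the smallest difference of the 3. Of all 252 sgRNAs, 10.3% had every IgA library below every vehicle library in this background. They included 6 of the 24 non-targeting sgRNAs, and Commd4 was the single gene with all 3 sgRNAs among these 10.3%. Of the 76 genes, summed over their sgRNAs, 11.8% had such groups. Nothing is read from these shares, since Commd4 was selected on this contrast.

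The abundance was also lower in ITPK1_KO cells under IgA, by a smaller amount. Summed Commd4 was at 11852, 10880.4, 11584 and 11063 CPM in vehicle mice 1 to 4. In IgA mice 5 to 8 it was at 9170.1, 10048, 9489.9 and 9279 CPM. The groups did not overlap, and mouse 6 came nearest to the vehicle mice. The means were 11345 ± 451 and 9497 ± 391 CPM (SD, n = 4 mice each), 16.3% lower under IgA, or -0.26 on the log2 scale (SE 0.041).

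The sgRNAs were less uniform here. Vehicle mice had sg-1 at 3471, 3291, 3434 and 3400.4 CPM, and IgA mice had it at 2690.2, 2753, 2653 and 2699 CPM. These IgA values were the tightest of any Commd4 group, with an SD of 41.4 CPM. sg-2 was at 4378, 4124, 4279 and 4225 CPM in vehicle mice and at 3508, 3798, 3698 and 3708 CPM in IgA mice, again without overlap. sg-3 was at 4003, 3466, 3871 and 3437 CPM in vehicle mice and at 2972, 3496, 3139 and 2871 CPM in IgA mice. For sg-3 the groups overlapped, because IgA mouse 6 lay above vehicle mice 2 and 4.

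The log2 differences in ITPK1_KO cells were -0.33 for sg-1 (SE 0.020), -0.21 for sg-2 (SE 0.030) and -0.24 for sg-3 (SE 0.083). As in ITPK1_WT cells, sg-1 had the most negative value and sg-2 the one nearest to 0. This order is not fully resolved. In ITPK1_WT cells sg-1 and sg-3 differed by less than the SE of either. In ITPK1_KO cells sg-2 and sg-3 differed by less than the SE of sg-3. In this background 5.58% of the 251 sgRNAs with enough reads, and 6.58% of genes, had all IgA libraries below all vehicle libraries. The single gene with all 3 sgRNAs among them was Ripk1, which encodes a kinase of the TNF receptor complex. Of the non-targeting sgRNAs, 0 had such groups in this background.

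The place of Commd4 among the 76 genes was taken from a count model (edgeR) of reads summed per gene. In ITPK1_WT cells Commd4 was the lowest gene at -0.51, followed at a distance by Acsl4, an enzyme that activates polyunsaturated fatty acids, at -0.16 (SE 0.051). In ITPK1_KO cells Commd4 was second lowest at -0.25. It lay between Ripk1 at -0.26 (SE 0.022) and Tmem57, which encodes the membrane protein macoilin, at -0.17 (SE 0.019). The distance to Ripk1 was smaller than the standard error of either gene.

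The non-targeting sgRNAs were used as a second reference. Their median moved by -0.059 between vehicle and IgA in ITPK1_WT cells and by -0.012 in ITPK1_KO cells on the TMM scale. Single non-targeting sgRNAs ranged from -0.21 to 0.16 in ITPK1_WT and from -0.17 to 0.10 in ITPK1_KO cells. Relative to them, summed Commd4 differed by -0.46 (SE 0.032) in ITPK1_WT and by -0.24 (SE 0.044) in ITPK1_KO cells. In the authors' deposited table of MAGeCK log2 fold changes, sg-1, sg-2 and sg-3 stood at -0.52, -0.28 and -0.54 in ITPK1_WT cells. The authors' deposited table for ITPK1_KO cells gave -0.33, -0.18 and -0.25. Scaled here to the non-targeting sgRNAs, the values were -0.55, -0.33 and -0.53 in ITPK1_WT and -0.32, -0.19 and -0.23 in ITPK1_KO cells. Over 237 sgRNAs in ITPK1_WT cells, the authors' values lay above those found here by a median of 0.060 with TMM. With non-targeting scaling this median was 0.015.

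The depletion was seen in each IgA mouse. Relative to the mean of the vehicle mice, summed Commd4 in mice 5 to 8 was at -0.49, -0.44, -0.59 and -0.52 in ITPK1_WT cells. In ITPK1_KO cells it was at -0.31, -0.17, -0.26 and -0.29. Mouse 6 had the smallest difference in both backgrounds.

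The numbers of cells and the read files moved with the arms. All vehicle libraries came from 2000000 sorted cells. Under IgA mouse 6 gave 2000000 cells of both backgrounds, while the other mice gave 657000 to 1200000 ITPK1_WT and 955000 to 1670000 ITPK1_KO cells. The read-file names fall into 2 numbered series, one with the 4 vehicle mice and mouse 5, the other with the libraries from before injection and IgA mice 6 to 8. Mouse 5 alone, within the series of the vehicle mice, gave the values -0.49 and -0.31 above, and mouse 6, with as many cells as the vehicle mice, gave -0.44 and -0.17.

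ITPK1_KO and ITPK1_WT cells were also compared in the vehicle mice. The same vehicle libraries entered the choice of Commd4, and a high level in ITPK1_WT cells of vehicle mice adds to both differences, so no p is given for Commd4 here. Without IgA, Commd4 sgRNAs were less abundant in ITPK1_KO than in ITPK1_WT cells. From the values above, every ITPK1_KO library of mice 1 to 4 lay below every ITPK1_WT library. The share of all genes with such groups was not computed, so nothing is read from this.

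The difference in edgeR's count model was -0.20 on the log2 scale (SE 0.022), and Commd4 was lower in 4 of 4 mice. Differences between the backgrounds were common. At an adjusted p under 0.05 in edgeR's quasi-likelihood test, 26.3% of genes were called lower and 23.7% higher in ITPK1_KO cells, 20 and 18 of 76. With libraries scaled to the non-targeting sgRNAs, 25 were lower and 14 higher. Commd4 ranked 7th from the lowest, between Hspbap1 at -0.21 and Bax, a pore-forming protein of mitochondrial apoptosis, at -0.18.

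The sgRNAs did not share this difference equally. sg-1 differed by -0.23 (SE 0.036) and sg-3 by -0.34 (SE 0.038), while sg-2 differed by -0.047 (SE 0.033). The ITPK1_KO and ITPK1_WT values overlapped between libraries for sg-2 and not for sg-1 or sg-3. How many of all sgRNAs had no such overlap was not computed, so nothing is read from this. Of all 252 sgRNAs, 18.3% were called lower by the same test, and nothing is read from this share for Commd4. The libraries from before injection had the same order, with ITPK1_KO minus ITPK1_WT at -0.16 for sg-1, 0.098 for sg-2 and -0.21 for sg-3, and no replicate error for these.

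Both backgrounds of a mouse shared the animal and its treatment, so their difference was also taken within each mouse. ITPK1_KO minus ITPK1_WT for summed Commd4 was -0.19, -0.25, -0.16 and -0.19 in vehicle mice 1 to 4, and -0.089 before injection. In IgA mice 5 to 8 it was -0.014, 0.071, 0.14 and 0.033. All IgA mice lay above all vehicle mice, near or above 0, while the vehicle mice were all below 0. The means were -0.20 ± 0.038 and 0.057 ± 0.065 (SD, n = 4 mice each).

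The gap between these means, 0.25 (SE 0.037), is the difference between the IgA effects in the backgrounds. It follows from the depletion used to choose Commd4 and was not tested. Per sgRNA it was 0.26 for sg-1, 0.16 for sg-2 and 0.33 for sg-3, and no sgRNA had overlapping arms. Of the 251 sgRNAs, 2.79% had all IgA mice above all vehicle mice in this quantity. For genes the share was 1.32%, which is Commd4 itself. Relative to the non-targeting sgRNAs the gap was 0.22.

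Both IgA groups lay below all others, and among the others both ITPK1_WT levels lay above both ITPK1_KO levels. From high to low, summed Commd4 was at 12989 CPM in ITPK1_WT cells of vehicle mice, 12645 CPM in ITPK1_WT cells before injection and 11889.5 CPM in ITPK1_KO cells before injection. Then came 11345 CPM in ITPK1_KO cells of vehicle mice, 9497 CPM in ITPK1_KO cells under IgA and 9130 CPM in ITPK1_WT cells under IgA. On this scale the first pair did not differ beyond the spread, since the library from before injection lay within the range of the vehicle mice. Relative to the non-targeting sgRNAs that library, at 74.0%, lay below all vehicle mice, the lowest at 75.1%. As a share of reads it also lay below them, at 1.260% against a lowest 1.264%. The ITPK1_KO library from before injection lay just above the highest ITPK1_KO vehicle mouse. The last pair overlapped, so under IgA the summed levels of the backgrounds were about the same. Before injection, with 1 library each, ITPK1_KO minus ITPK1_WT was -0.089 for the sum. For sg-2 alone this difference was 0.098 before injection, -0.044 in vehicle mice and 0.12 under IgA.

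Change since injection was measured against the single library of the same background, relative to the non-targeting sgRNAs and with 0.5 reads added. Without antibody it was small, at 0.057 ± 0.040 in ITPK1_WT and -0.091 ± 0.068 in ITPK1_KO cells (SD, n = 4 mice each). Under IgA it was -0.41 ± 0.049 in ITPK1_WT and -0.33 ± 0.056 in ITPK1_KO cells, below 0 in 4 of 4 mice in both. Without antibody it was below 0 in 0 of 4 mice in ITPK1_WT and also in 4 of 4 in ITPK1_KO cells. The sign alone therefore did not separate the arms in ITPK1_KO cells. The SD leaves out the error of the single starting library, which all mice of a background share.

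By this measure sg-2 in ITPK1_WT cells stood above its starting level without antibody, at 0.16 ± 0.052, and below it under IgA, at -0.17 ± 0.059. In ITPK1_KO cells sg-2 was at -0.027 ± 0.045 without antibody and at -0.22 ± 0.049 under IgA. sg-1 was near its starting level in ITPK1_WT cells of vehicle mice, at -0.031 ± 0.024, and at -0.58 ± 0.089 under IgA. In ITPK1_KO cells the values of sg-1 were -0.14 ± 0.041 without antibody and -0.46 ± 0.018 under IgA. sg-3 was at 0.044 ± 0.062 and -0.49 ± 0.040 in ITPK1_WT cells, and at -0.12 ± 0.12 and -0.35 ± 0.12 in ITPK1_KO cells. Each of the 3 sgRNAs was below its starting level in all 4 IgA mice of both backgrounds. In vehicle mice sg-1 was also below it in 4 of 4 mice of both backgrounds. In ITPK1_KO cells of vehicle mice, sg-2 and sg-3 were each below it in 3 of 4 mice. In ITPK1_WT cells of vehicle mice the counts were 0 of 4 for sg-2 and 1 of 4 for sg-3. The share of all sgRNAs with such counts was not computed.

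The other genes were ordered by how closely their summed abundance followed that of Commd4 over the 16 recovered libraries, each background centred on its own mean. The measure is Pearson's r, given as a description, since the libraries share arms, cell numbers and scaling. The 5 highest were CASP2, an initiator caspase, at 0.84, Acsl4 at 0.75, the death receptor adaptor Fadd at 0.74, the homeobox factor Hoxa3 at 0.69 and Pmaip1, the BH3-only protein NOXA, at 0.68. The 3 lowest were Hspbap1 at -0.89, the apoptosome scaffold APAF1 at -0.88 and Itpk1 at -0.84. The median over all other genes was -0.019.

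The 5 most alike genes were nearer to 0 than Commd4 under IgA. Commd4 was chosen for its fall under IgA, so nothing is read from this order. In ITPK1_WT cells the IgA difference was -0.091 for CASP2, -0.16 for Acsl4, -0.14 for Fadd, -0.032 for Hoxa3 and -0.060 for Pmaip1. In ITPK1_KO cells it was -0.045, -0.0071, -0.038, -0.061 and -0.032 for the same genes, so Acsl4 was near 0 there. Once the means of the arms were also removed, r with Commd4 was 0.92 for Hoxa3, 0.65 for Acsl4, 0.44 for CASP2, 0.14 for Pmaip1 and -0.12 for Fadd. Fadd therefore followed Commd4 between arms but not between mice of an arm. For Hspbap1, APAF1 and Itpk1, the genes least like Commd4 before this step, r was then -0.15, -0.18 and -0.50. Hspbap1 and APAF1 therefore opposed Commd4 mainly between arms.

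Of the 16 genes listed for the Commander assembly, only Commd4 was targeted by the library, so no partner could be compared. The list of TNF receptor and NF-kB genes had 11 of 25 members in the library. In the vehicle mice 2 of these 11 were higher in ITPK1_KO cells and 3 lower, against 23.7% higher and 26.3% lower among all genes, so the list was near the overall share. The higher members were Ripk1 at 0.12 (adjusted p = 9.91e-07 in edgeR) and Birc2, which encodes the ubiquitin ligase cIAP1, at 0.068 (adjusted p = 0.000779). The other 6 did not pass the test in either direction.

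The lower members were Spata2 at -0.17 (adjusted p = 6.73e-05 in edgeR), Fadd at -0.11 (adjusted p = 0.00285) and Cyld at -0.076 (adjusted p = 0.00544). CYLD is a deubiquitinase that SPATA2 links to the TNF receptor complex. In the same contrast, single non-targeting sgRNAs ranged from -0.107 to 0.115. Those at -0.107, 0.080 and 0.115 also had an adjusted p under 0.05 in edgeR. Birc2, Cyld and, narrowly, Fadd lay within this range, so their calls do not set them apart from the controls. The range is of single sgRNAs, while the gene values are sums over sgRNAs. The median of the list was -0.033, beside 0.0018 over all 76 genes. Commd4, at -0.20, lay below every called member of this list, but the vehicle libraries entered its choice. The nearest member, Spata2, differed from Commd4 by less than the SE of Spata2, 0.034.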

How the data were processed

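The authors deposited raw counts, whole reads per sgRNA in 18 libraries. The design text says that reads matching an sgRNA without mismatch were counted and then scored with MAGeCK 0.5.6; which aligner was used is not given in the sources used here. In log2 units, the authors' deposited MAGeCK tables hold fold changes of treated against vehicle mice. Other deposited columns, per the file headers, are the cells sorted and the sgRNA sequences. The arm of each mouse comes from the deposited sample legend. Columns of joined per-sample values in the MAGeCK tables were not used.

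Counts with a mean of at least 10 reads were kept and TMM-scaled over all 18 libraries for the CPM. ITPK1_KO minus ITPK1_WT in vehicle mice was fitted on those 8 libraries, on counts summed per gene and per sgRNA, with edgeR 4.0.16 (glmQLFit, glmQLFTest) in R 4.3.3, Benjamini-Hochberg adjustment and a threshold of 0.05. The same model was also fitted to the IgA and vehicle libraries of each background. It gave the gene order under IgA, the IgA differences of other genes and the shifts of the non-targeting sgRNAs. Change from before injection is a log2 ratio to the non-targeting sgRNAs. The remaining log2 values are means of log2 CPM or differences between such means. The vehicle fit per sgRNA was tested on simulated data. The biological coefficient of variation in the vehicle fits was 1.54% for genes and 2.68% for sgRNAs. Chi-square tests found no duplicate libraries. All 76 gene names matched RefSeq symbols or synonyms (GRCm38.p6); no coordinates are given, since the files name no build.

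Commd4, the gene lists and the tests were chosen with earlier results of these data known. Genes were named by rule: Commd4, library members of the Commander list, and the 5 genes most and 3 least like Commd4. The rule also covered called members of the TNF receptor and NF-kB list, and neighbours in any order given. Ripk1 is also named as the gene with all 3 sgRNAs lower under IgA than in vehicle mice within ITPK1_KO cells.

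Both backgrounds of a mouse come from the same animal, so mouse numbers pair the libraries. Over the 238 sgRNAs averaging 500 reads or more, deviations from the group means correlated between both libraries of mice 1 to 8 at 0.091, 0.049, 0.063, -0.012, -0.083, 0.19, -0.045 and 0.26. Alternatives were DESeq2 1.42.0 (size factors and Wald test), total counts, non-targeting scaling, no filter, thinning, 5 reads added, the mean of sgRNAs, a replicate block, each mouse left out and single mice.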

Additional observations from a re-analysis of the deposited data

Results flagged for a closer look

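Commd4 sg-1 in ITPK1_WT cells of IgA mouse 7 stood apart from its group. It was at 2379.8 CPM, while the nearest of the other IgA mice was at 2696 CPM and the highest at 2749.9 CPM, so the gap was 0.855 of the range, above Dixon's 95% critical value for 4 samples. Of 16 groups examined (3 sgRNAs and their sum, in 2 backgrounds and 2 arms) it was the only one above its critical value, and chance does so in about 1 of 20 groups.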

How the results depend on the processing

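In vehicle mice the ITPK1_KO minus ITPK1_WT difference kept its direction for summed Commd4 and each sgRNA under all 11 alternatives run. The same libraries entered the choice of Commd4, so this is a description. Summed Commd4 ranged from -0.21 to -0.19. With the mouse as a replicate block, the paired values were -0.20 for the sum, -0.23 for sg-1, -0.045 for sg-2 and -0.33 for sg-3. The IgA difference of summed Commd4 ranged, with each mouse left out, from -0.53 to -0.48 in ITPK1_WT and from -0.28 to -0.24 in ITPK1_KO cells. The difference between the IgA effects ranged from 0.23 to 0.28. Mouse 6 alone, with as many sorted cells as the vehicle mice, gave -0.44 in ITPK1_WT and -0.17 in ITPK1_KO cells, and mouse 5 alone gave 0.18 for the difference between the effects. The change from before injection in ITPK1_WT cells under IgA was -0.47 as a share of all reads. Relative to the non-targeting sgRNAs it was -0.41, from -0.42 to -0.38 with each mouse left out. Mouse 6 alone, mouse 5 alone for the difference between the effects, the joint fit for single sgRNAs and the mice left out of the change from before injection were added after seeing the data; the causes of these shifts were not tested. The error between mice rests on 4 mice per arm, and the pools before injection have 1 library each.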

Other observations

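The 3 Commd4 sgRNAs moved together over the 16 recovered libraries, each background centred on its own mean. Pearson's r was 0.98 between sg-1 and sg-2, 0.95 between sg-2 and sg-3 and 0.94 between sg-1 and sg-3. With the means of the arms also removed it was 0.80, 0.58 and 0.32. The sgRNAs share the library, its depth and its scaling, so these are descriptions of the same 16 libraries.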
